A study of Mus musculus with 6 samples.

Results

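The gene group described here holds 91 of the 55471 genes in a hippocampal count table, chosen because their counts were lower in mice without functional CBP and because they are less often discussed than the best known CBP-dependent neuronal genes. The choice used the measured values themselves. A gene entered when its mean level in Control was at least 2 CPM (the count divided by all counts of its library, times 1000000), when the log2 ratio of the mean levels, CBP-ifKO over Control with 0.5 CPM added to each, was -0.7 or lower, and when every CBP-ifKO library lay below every Control library. These criteria were met by 108 of the 15068 genes at or above the Control minimum, which is 0.717% of them, and 17 of the 108 were then left out by name, among them Crebbp itself. Every value below that compares the 91 genes between the genotypes is therefore a description, and where a call is counted for them nothing is read from it.

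The study profiled total RNA from the hippocampus of C57BL/6 mice aged 3 to 6 months, with 3 Control and 3 CBP-ifKO samples. CBP-ifKO mice carry a floxed Crebbp gene and the tamoxifen-activated recombinase creERT2 under the Camk2a promoter, which is active in excitatory neurons of the forebrain, so interneurons, glia and vessel cells keep the gene. Per the study's methods, the Controls were littermates without the recombinase, both genotypes received tamoxifen, and each sample pooled the hippocampi of 3 females. The description label of the Control samples also carries the name of the recombinase line. The deletion leaves a truncated CBP without acetyltransferase activity rather than no transcript.

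CREB-binding protein (CBP, gene Crebbp) is a transcriptional coactivator that is recruited by CREB and many other transcription factors and that acetylates histones at enhancers and promoters. In the hippocampus it is known for its part in activity-dependent transcription and memory, and loss of its function in humans causes Rubinstein-Taybi syndrome. The principal neurons of the dentate gyrus, CA1, CA2 and CA3 each express characteristic genes, and a bulk sample mixes them with glia, vessels and attached meninges, so that fewer cells of a type and less RNA per cell cannot be told apart.

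The labels were checked on the targeted gene first. Crebbp was at 207, 154 and 201 CPM in Control and at 110, 88.7 and 100 CPM in CBP-ifKO, without overlap. Esr1, the estrogen receptor gene whose ligand-binding part is fused to the recombinase in creERT2, was at 5.45 to 6.24 CPM in Control and at 64.2 to 70.6 CPM in CBP-ifKO. Camk2a, which marks forebrain excitatory neurons and whose promoter drives the transgene, was at 1901 ± 200 and 2093 ± 127 CPM (SD, n = 3 each) and did not pass the test (log2 fold change 0.09, SE 0.07, adjusted p = 0.516 by edgeR). Slc17a7, also expressed by excitatory neurons, was not called either (log2 fold change -0.04, SE 0.08, adjusted p = 0.814 by edgeR). Its group means were 543 ± 26.1 CPM (Control) and 544 ± 69.6 CPM (CBP-ifKO). Rbfox3 and Snap25, expressed by neurons in general and named after their values were seen, had lower means in CBP-ifKO. Rbfox3 was called lower (103 ± 13 CPM in Control against 77.7 ± 3.69 CPM in CBP-ifKO, a log2 fold change of -0.46 with SE 0.08, adjusted p = 0.00300 by edgeR), and Snap25 was at -0.18 (adjusted p = 0.0690 by edgeR, and 0.0319 with offsets for GC content and length). The part of these differences in the values of the 91 genes was not tested. Libraries held between 10199008 and 12042337 counts, except CBP-ifKO replicate 2 with 14950257.

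Before the values, the DNA just upstream of the genes with the largest differences is shown, because they were picked for a shared direction and not for shared sequence. RefSeq windows from 250 bases before to 50 bases after the gene start (GRCm38.p6) were at hand for 62 of the 91 genes. The last 100 bases before the gene start are given 5′ to 3′ on the gene's strand, for those among the 10 largest differences that had a usable window. The start used here is the outermost of the RefSeq and GENCODE starts, which for Igfbp6 and Gm26644 lies upstream of the GENCODE start. Capitals mark a GC box (GGGCGG), the core of the cAMP response element (TGACG) or an AP-1 site (TGANTCA) on either strand.
Serpinb8, chr1:107589906-107590005, plus strand: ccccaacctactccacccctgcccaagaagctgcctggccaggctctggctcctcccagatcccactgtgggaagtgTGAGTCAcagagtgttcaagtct
Wnt4, chr4:137277389-137277488, plus strand: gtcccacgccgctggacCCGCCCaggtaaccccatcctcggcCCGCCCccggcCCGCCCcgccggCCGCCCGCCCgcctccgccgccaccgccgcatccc
Vegfd, chrX:164373278-164373377, plus strand: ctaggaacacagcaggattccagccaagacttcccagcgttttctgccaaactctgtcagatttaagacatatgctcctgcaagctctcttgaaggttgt
Gm26644, chr19:44695481-44695580, minus strand: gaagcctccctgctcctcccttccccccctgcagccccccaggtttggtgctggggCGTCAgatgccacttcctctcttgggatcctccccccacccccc
Wnt9a, chr11:59306828-59306927, plus strand: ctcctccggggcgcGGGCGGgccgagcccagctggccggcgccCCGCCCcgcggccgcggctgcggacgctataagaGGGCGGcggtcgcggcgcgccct
Igfbp6, chr15:102144086-102144185, plus strand: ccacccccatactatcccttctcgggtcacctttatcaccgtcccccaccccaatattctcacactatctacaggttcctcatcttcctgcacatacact

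The 6 stretches varied in composition. Those of Wnt4 and Wnt9a were both 85.0% G and C and held 5 and 3 GC boxes, whereas that of Vegfd was 47.0% G and C and held none of the motifs marked. Over the whole windows, the GC box was found for 37 of the 62 genes (59.7%) and for 38.2% of all 27025 genes with a window. These 27025 genes were not limited to 2 CPM or more in Control, as the 62 were. The part of this difference in the shares given here was not tested. The complete cAMP response element TGACGTCA, the classical site of CREB, was found for 0 of the 62 genes and for 2.03% of all genes, and its core TGACG, which the complete element contains, for 10 (16.1%) and for 23.0%. Those 10 genes were Kcnj4, Nbl1, Rara, Myh7, Krt9, Asb11, Arhgdib, Gm26644, A830036E02Rik and 1700007F19Rik. An AP-1 site was found for 5 genes (8.06%, against 8.97% of all genes), namely Serpinb8, Ptgds, Necab2, Igfbp2 and Efcc1. The TATA box (TATAAA) was found for 14.5% against 15.7%, and the E-box (CANNTG) for 71.0% against 75%. A match is a run of letters in the window and is not evidence that a factor binds there.

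Across the 91 genes the log2 ratio ranged from -1.57 to -0.70 with a median of -0.83, beside a median of 0.04 over all 15068 genes at or above 2 CPM in Control. In 38 genes the CBP-ifKO mean was 50% of Control or less. At the edge of the selection, Vgf, Nbl1, Pmepa1 and Scrt2 lay just inside with log2 ratios of -0.705, -0.705, -0.702 and -0.702, and Slc13a3, Hrh3, Cd163 and Vstm2l lay just outside with -0.698, -0.698, -0.698 and -0.697. In all, 1740 genes had every CBP-ifKO library below every Control library (11.5% of the 15068), and the 108 are those of them with the largest log2 ratios in size. By edgeR, all 91 were tested and 89 were called lower at an adjusted p under 0.05, beside 4.99% of all 17981 genes tested called lower and 1.40% called higher, and nothing is read from the members' count because the same contrast chose them. The 2 that were not called were Mmp2 and Asb11. Criteria mirrored to the opposite direction, with the minimum of 2 CPM still set on Control, were met by 24 genes. That count leaves out no gene by name, so it stands beside the 108.

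**Figure D1:**
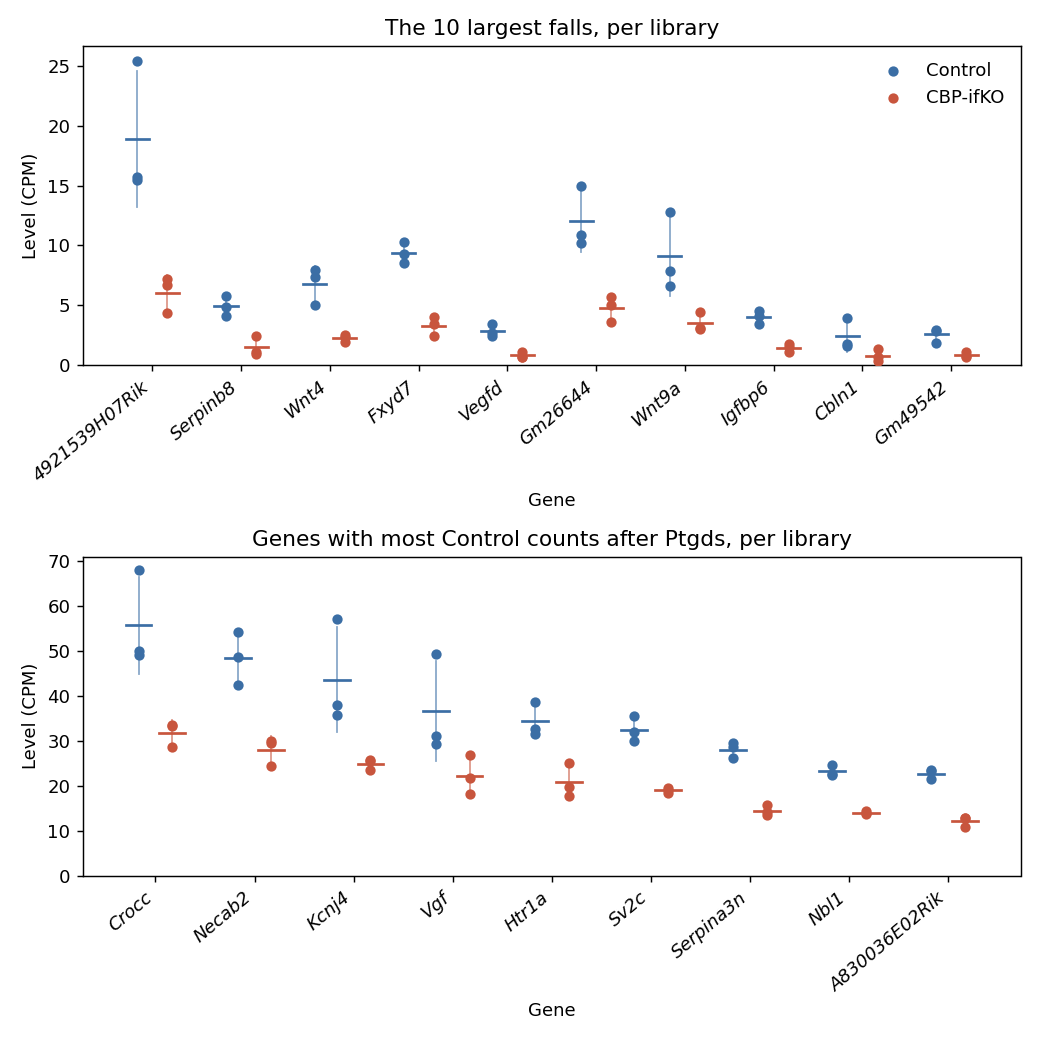
Level in CPM (y axis) of each of 3 Control (blue) and 3 CBP-ifKO (red) libraries for the 10 genes with the largest difference (top) and for 9 of the 10 with the most Control counts after Ptgds (bottom); bars are group means and thin lines ± 1 SD. In every gene the groups are apart, as the selection required. For Fxyd7, Wnt9a, Crocc, Necab2, Kcnj4 and Vgf, Control replicate 2 is the highest point.

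**Figure D2:**
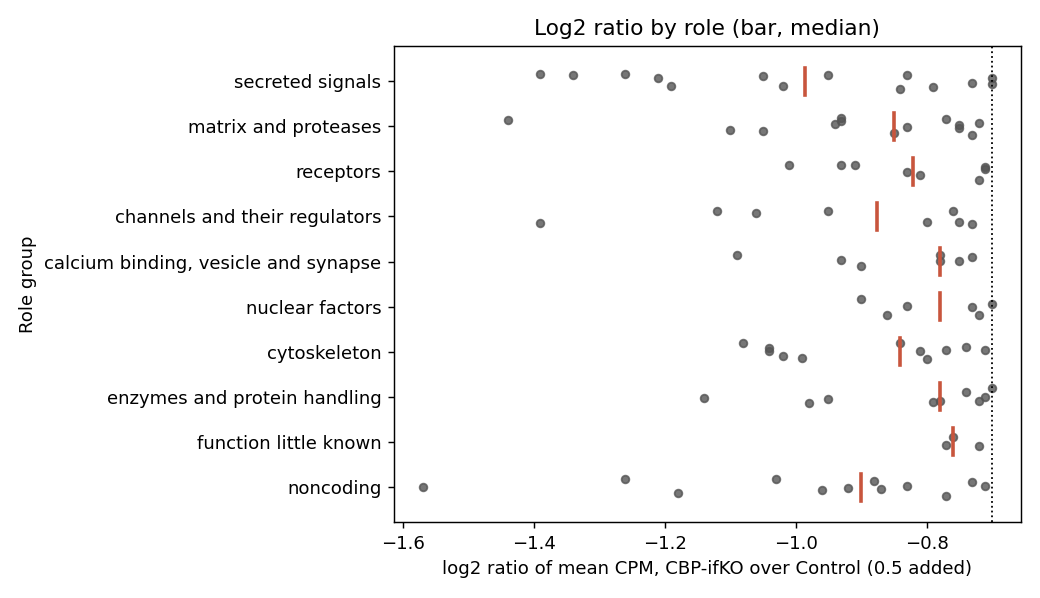
Log2 ratio of mean CPM, CBP-ifKO over Control with 0.5 CPM added (x axis), of each of the 91 genes (points) by role group (y axis), with the group median as a red bar and the selection limit of -0.7 dotted. Group medians lie between -0.99 for secreted signals and -0.76 for genes of little known function.

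Secreted signalling proteins made up 14 of the 91 genes, with a median log2 ratio of -0.99. Among them were Wnts, insulin-like growth factor binding proteins and neuropeptide precursors. Wnt4, a Wnt ligand that acts in development and at synapses, was at 7.91, 5.00 and 7.37 CPM in Control and at 2.35, 2.54 and 1.91 CPM in CBP-ifKO, which is 33.5% of Control (log2 ratio -1.39). Wnt9a, another Wnt ligand, was at 6.61, 12.8 and 7.85 CPM and at 4.41, 3.14 and 2.99 CPM, with Control replicate 2 well above the other 2. Wnt2 was at 4.32 ± 0.323 CPM in Control against 2.29 ± 0.558 CPM in CBP-ifKO (SD, n = 3 each).

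Vegfd, a growth factor of the VEGF family that is known to maintain dendrite length in hippocampal neurons, was at 3.45, 2.46 and 2.68 CPM in Control and at 0.686, 1.14 and 0.664 CPM in CBP-ifKO. Its CBP-ifKO mean of 29.0% of Control was the lowest of the 91, followed by that of Serpinb8 at 30.5%. Cbln1, a cerebellin that bridges presynaptic neurexin and postsynaptic GluD receptors, was at 1.58, 1.78 and 3.92 CPM and at 0.686, 0.334 and 1.33 CPM. The counts behind Cbln1 were few, down to 5 in a library, and only Control replicate 3 stood well above the CBP-ifKO libraries.

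Igfbp6, which binds insulin-like growth factors and favours IGF2, was at 3.45, 4.15 and 4.50 CPM in Control and at 1.76, 1.54 and 1.08 CPM in CBP-ifKO. Igfbp2, of the same family, was at 11.7 ± 1.23 and 6.29 ± 0.244 CPM. C1qtnf4, a secreted protein of the C1q and TNF-related family, was at 10.6 ± 4.56 and 4.87 ± 0.967 CPM, with Control replicate 2 at 15.9 CPM. The groups were apart in each of these genes.

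Among peptide precursors, Grp encodes gastrin-releasing peptide and was at 13.9 ± 0.190 CPM in Control against 6.93 ± 0.910 CPM in CBP-ifKO. Vgf encodes a neurotrophin-induced precursor of several peptides and was at 29.3, 49.4 and 31.2 CPM and at 26.9, 18.3 and 21.7 CPM. For Vgf the lowest Control library exceeded the highest CBP-ifKO library by a ratio of 1.09, so that the groups nearly met. Nbl1, a BMP antagonist, was at 24.6, 22.8 and 22.4 CPM and at 14.4, 14.1 and 13.7 CPM, a much tighter separation. Lefty1, a Nodal antagonist of the TGF-beta family, and Stc1, a stanniocalcin, were at log2 ratios of -0.73 and -0.83.

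**Figure D3:**
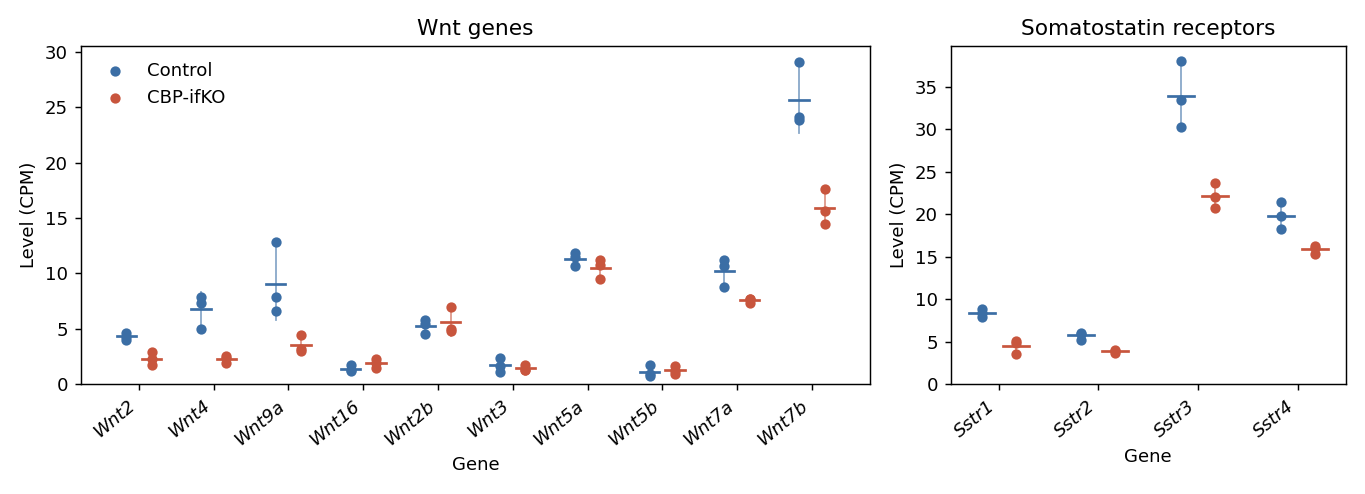
Level in CPM (y axis) of each of 3 Control (blue) and 3 CBP-ifKO (red) libraries for Wnt genes (left) and somatostatin receptor genes (right), with means and ± 1 SD. Wnt2, Wnt4, Wnt9a and Sstr1 were selected for the difference, and the other genes of both families tested are shown whether called or not; Wnt16, Wnt2b and Wnt5b have a higher mean in CBP-ifKO than in Control.

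Receptors numbered 8, with a median log2 ratio of -0.82. Gucy2g, a receptor guanylyl cyclase, was at 3.17, 3.90 and 3.54 CPM in Control and at 1.86, 1.40 and 1.25 CPM in CBP-ifKO. Ackr2, a scavenger receptor for inflammatory chemokines, was at 2.14, 1.78 and 2.49 CPM and at 0.686, 1.14 and 0.830 CPM. Both were low in every library.

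Htr1a, the inhibitory serotonin 1A receptor that is abundant on hippocampal pyramidal neurons, was at 38.7, 32.8 and 31.7 CPM in Control and at 17.7, 25.2 and 19.7 CPM in CBP-ifKO. Sstr1, a somatostatin receptor, was at 8.39 ± 0.451 and 4.49 ± 0.839 CPM. The groups were apart in both, with ratios of lowest Control to highest CBP-ifKO of 1.26 for Htr1a and 1.57 for Sstr1. Prokr2, the receptor of prokineticins, Grm4, an inhibitory metabotropic glutamate receptor, Cckbr, the brain cholecystokinin receptor, and Epor, the erythropoietin receptor, were at log2 ratios of -0.81, -0.72, -0.71 and -0.91.

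Ion channels and their regulators were also 8, with a median log2 ratio of -0.87. Fxyd7, a small membrane protein that modulates the sodium pump in brain, was at 8.57, 10.3 and 9.28 CPM in Control and at 3.43, 2.41 and 3.99 CPM in CBP-ifKO. Its lowest Control library was 2.15 times its highest CBP-ifKO library. Kcnj4, the inwardly rectifying potassium channel Kir2.3, was at 35.9, 57.1 and 38.0 CPM and at 25.6, 23.5 and 25.7 CPM, with Control replicate 2 high. Scnn1a, the alpha subunit of the epithelial sodium channel, was at 2.23, 2.97 and 3.06 CPM and at 0.686, 1.07 and 1.25 CPM.

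The potassium channel Kcnh4 of the ether-a-go-go family and the acid-sensing channel family member Asic4 were at log2 ratios of -0.95 and -1.06. Rem2, a small GTPase that inhibits voltage-gated calcium channels, was at 9.68 ± 1.11 and 5.54 ± 0.785 CPM. Gja6, a connexin gene on the X chromosome, was at 3.74 ± 0.321 and 2.01 ± 0.287 CPM.

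Calcium-binding, vesicle and synapse proteins numbered 7. Igsf21, an adhesion molecule of inhibitory synapses that binds neurexin, was at 9.96, 11 and 7.66 CPM in Control and at 3.63, 4.15 and 4.90 CPM in CBP-ifKO. Jsrp1, known from the junction of the muscle sarcoplasmic reticulum, was at 2.61, 1.36 and 2.39 CPM and at 1.08, 0.468 and 1.08 CPM. Necab2, an EF-hand protein used as a CA2 marker, was at 42.6, 54.3 and 48.8 CPM and at 30.0, 24.5 and 29.6 CPM. Its relative Necab3 showed a ratio of the same size (log2 ratio -0.78 for both), while the remaining member of the family, Necab1, was at 97.5 ± 6.37 and 101 ± 4.75 CPM.

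Sv2c, a glycoprotein of synaptic vesicles, was at 35.6, 30.0 and 32.0 CPM in Control and at 19.2, 18.5 and 19.5 CPM in CBP-ifKO, and varied little within either group. Cpne5, a calcium-dependent phospholipid-binding copine, was at 16.2 ± 1.24 and 8.47 ± 1.25 CPM, and Efcc1, an EF-hand and coiled-coil protein, at 5.40 ± 0.842 and 3.06 ± 0.415 CPM.

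Nuclear factors numbered 6, with a median log2 ratio of -0.78. Ier5l, named for its likeness to an immediate early response gene, was at 2.98, 3.05 and 2.78 CPM in Control and at 1.27, 1.40 and 1.33 CPM in CBP-ifKO. Rara, the retinoic acid receptor alpha, was at 8.75, 8.14 and 8.23 CPM and at 4.80, 4.08 and 4.32 CPM. In both genes the spread within each group was small beside the gap between them. Zfpm1, a cofactor of GATA factors, Epop, a partner of Polycomb repressive complex 2, and the repressor Scrt2 were at log2 ratios of -0.73, -0.72 and -0.70.

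Matrix proteins, proteases and protease inhibitors numbered 13, with a median log2 ratio of -0.85. Serpinb8, an intracellular serine protease inhibitor, was at 4.84, 4.15 and 5.74 CPM in Control and at 2.45, 1.14 and 0.913 CPM in CBP-ifKO, or 30.5% of Control. Serpina3n, a secreted inhibitor also known as a marker of reactive astrocytes, was at 26.2, 28.7 and 29.5 CPM and at 15.8, 14.3 and 13.5 CPM. Fbln2, the matrix glycoprotein fibulin 2, was at 7.54, 7.21 and 7.94 CPM and at 3.53, 3.14 and 3.07 CPM, so that each Control library was at least 2.04 times each CBP-ifKO library.

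Collagen genes numbered 5 in the group. Col12a1 and Col5a1 were at 22.7 ± 4.72 and 13.2 ± 1.15 CPM in Control and at 12.4 ± 0.704 and 6.66 ± 0.932 CPM in CBP-ifKO. Col23a1, Col18a1 and Col3a1 were at log2 ratios of -0.73, -0.77 and -0.75. The leucine-rich proteoglycans Ogn and Podn were at -1.05 and -0.83, the thrombospondin Thbs3 at -0.94, the gelatinase Mmp2 at -0.72 and the serine protease Htra4 at -0.75.

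Several of these matrix genes are also expressed by fibroblasts of the meninges. In a list of 8 markers of meningeal fibroblasts, 7 were tested. Leaving out Col3a1, which was selected for being lower, 1 of 6 was called lower, Dcn (decorin, 56.8 CPM in Control against 36.1 CPM in CBP-ifKO, a log2 fold change of -0.69 with SE 0.08 and adjusted p = 0.000133 by edgeR). These 6 had a median log2 fold change of -0.57, and Igf2 was near 0 in both groups (0.0629 CPM in Control). Of all 7 tested, Col3a1 included, 5 were lower at an unadjusted p under 0.05 by edgeR. The level summed over all 8 markers, Col3a1 included, was 76.0 to 84.1 CPM in Control and 46.9 to 57.5 CPM in CBP-ifKO. Dcn alone supplied 55.9 to 57.8 CPM of it in Control and 31.1 to 39.4 CPM in CBP-ifKO. The part of these cells in the lower matrix genes was not tested.

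Cytoskeletal proteins and their regulators numbered 11, with a median log2 ratio of -0.84. Myh7, the slow and cardiac myosin heavy chain, was at 3.63, 4.58 and 2.68 CPM in Control and at 1.37, 1.34 and 1.66 CPM in CBP-ifKO. Inka1, an inhibitor of the kinase PAK4, was at 4.56, 3.81 and 4.11 CPM and at 1.57, 1.34 and 2.41 CPM. Crocc, the rootletin of the ciliary rootlet, was at 50.0, 68.2 and 49.1 CPM and at 33.4, 28.6 and 33.6 CPM, with Control replicate 2 high. The genes Krt9, Krt77, Ppl and Acta1, whose products are known from skin and skeletal muscle, were detected in every library, at 2.85 ± 0.136, 8.74 ± 1.68, 6.52 ± 0.725 and 4.15 ± 0.447 CPM in Control.

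Psrc1, a microtubule-associated protein, was at 10.3 ± 1.21 CPM in Control against 4.84 ± 0.592 CPM in CBP-ifKO, and Plk5, a polo-like kinase relative found in brain, at 12 ± 2.12 and 6.47 ± 0.492 CPM. Rnd1, a small GTP-binding protein, and Arhgdib, a regulator of small GTPases, were at log2 ratios of -0.74 and -0.71. In Rnd1 the lowest Control library was 1.02 times the highest CBP-ifKO library, so that the groups barely separated.

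Enzymes and proteins that handle other proteins numbered 9. Amz1, a metallopeptidase, was at 10.1, 9.58 and 9.66 CPM in Control and at 3.14, 4.01 and 5.40 CPM in CBP-ifKO. Hspa1b, an inducible heat shock protein, was at 4.10, 5.76 and 2.30 CPM and at 1.76, 1.40 and 2.24 CPM. The lowest Control library of Hspa1b was 1.02 times the highest CBP-ifKO library. Its near-identical copy Hspa1a was at 2.39 ± 0.328 and 1.54 ± 0.588 CPM and was not called (adjusted p = 0.224 by edgeR), and reads shared by the copies make either value uncertain.

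Ptgds, the prostaglandin D2 synthase that is abundant in meninges, choroid plexus and oligodendrocytes, was at 207, 163 and 158 CPM in Control and at 105, 88.6 and 127 CPM in CBP-ifKO. Per kilobase of exon it was also the most abundant of the 91 genes, at 107 reads per kilobase and 1000000 counts in Control, ahead of Necab2 at 23.2 and Kcnj4 at 20.3. Aldh1a2, which makes retinoic acid and is known from the meninges, was at 3.75 ± 0.754 and 1.70 ± 0.649 CPM. Tdo2, a tryptophan dioxygenase that in brain marks dentate granule cells, was at 9.20 ± 0.346 and 5.11 ± 0.657 CPM. The palmitoyltransferase Zdhhc22, Pmepa1, which restrains TGF-beta signalling, the RING finger protein Rnf207 and the ankyrin and SOCS box protein Asb11 were at log2 ratios of -0.71, -0.70, -0.78 and -0.74. Summed over 10 markers of the choroid plexus, the level was 42.5 to 54.0 CPM in Control and 33.6 to 57.8 CPM in CBP-ifKO. Over 9 markers of oligodendrocytes it was 2466 to 2918 and 2586 to 2817 CPM, so that the groups overlapped in both. Only 4 of the 10 choroid plexus markers had enough counts to be tested. Over the 8 markers of meningeal fibroblasts the sums were 76.0 to 84.1 and 46.9 to 57.5 CPM, without overlap. Dcn alone supplied 55.9 to 57.8 and 31.1 to 39.4 CPM of these sums, which also include Col3a1, selected for being lower. The part of any of these cells in the values of Ptgds was not tested.

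Fyb2, Ankrd63 and Btbd17 are protein-coding genes of little known function in brain. Fyb2 was at 5.31, 5.51 and 4.98 CPM in Control and at 2.94, 3.01 and 2.66 CPM in CBP-ifKO. Ankrd63 was at 12.3, 14.3 and 13.8 CPM and at 7.26, 8.96 and 6.98 CPM. Btbd17 was at a log2 ratio of -0.72.

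Noncoding genes numbered 12, and they included the largest difference of all 91. The long noncoding RNA 4921539H07Rik was at 25.4, 15.5 and 15.7 CPM in Control and at 6.67, 7.16 and 4.32 CPM in CBP-ifKO, a log2 ratio of -1.57. It lies at chr3:58117053-58167616 on the plus strand (GRCm38), and 1700007F19Rik, at 3.56 ± 1.07 and 1.49 ± 0.416 CPM, lies inside this span on the minus strand. Of the exon bases of 1700007F19Rik, 13% overlap those of 4921539H07Rik, and since the counting is not stated to have used strand, reads there cannot be assigned to either.

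Gm26644 was at 15, 10.9 and 10.2 CPM in Control and at 5.69, 5.02 and 3.57 CPM in CBP-ifKO. Gm49542 was at 2.98, 1.86 and 2.87 CPM and at 0.686, 0.803 and 1.08 CPM, from as few as 7 counts in a library. A830036E02Rik, annotated as antisense, was at 23.5, 23.3 and 21.6 CPM and at 12.9, 10.9 and 12.8 CPM, and 16.7% of its exon bases overlap Krt12 on the other strand. Larger shares overlap on the other strand in the protein-coding genes Htra4 (32.9%, with Gm16933) and Asic4 (18.1%, with Gm37264). Reads there cannot be assigned either. Gm32014 was at 12.9 ± 0.377 and 7.03 ± 0.429 CPM. Gm44724, Gm31698, Gm30371, Gm39822, Gm32442 and Gm12522 were all between 2.40 and 2.80 CPM in Control, with log2 ratios from -0.96 to -0.71.

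Some of the 91 genes lie next to each other. Gm12522 (chr3:108379277-108383741, minus strand) and Psrc1 (chr3:108383839-108388231, plus strand) start head to head, 97 bases apart. The part of that stretch before the outermost start of Psrc1, chr3:108383742-108383803 on the plus strand, which holds none of the motifs marked above, reads as follows.
Gm12522 and Psrc1: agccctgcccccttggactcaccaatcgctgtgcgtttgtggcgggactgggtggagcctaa
Vegfd and Asb11 lie on the X chromosome, 34343 bases apart and on the same strand, with Piga between them. They account for 2 of the 3 genes of the group on that chromosome, and the share on X was 3.30% beside 3.15% of all genes at or above 2 CPM in Control.

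Transcripts of the 91 genes were richer in G and C than those of other genes. The median GC content of the longest transcript was 55.2%, beside 48.4% over all genes at or above 2 CPM, and 19 of the 91 were at 60% or over, beside 539 of all genes with a value. In these libraries the log2 ratio itself moved with GC content, from a median of 0.10 over all genes under 40% to -0.20 over those at 60% or over. When smooth trends of GC content and length were removed from the levels of each library, 64 of the 91 still met the criteria. All 12 noncoding genes were among the 64, as were 9 of 14 secreted signals, 10 of 13 matrix genes, 6 of 8 receptors, 4 of 8 channel genes and 3 of 6 nuclear factors. Kcnj4, Crocc, Necab2, Vgf, Nbl1 and Ptgds were not among them. Protein-coding genes made up 86.8% of the 91 and 83.8% of all, and the median exon length was 3136 and 4335 bases.

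**Figure D4:**
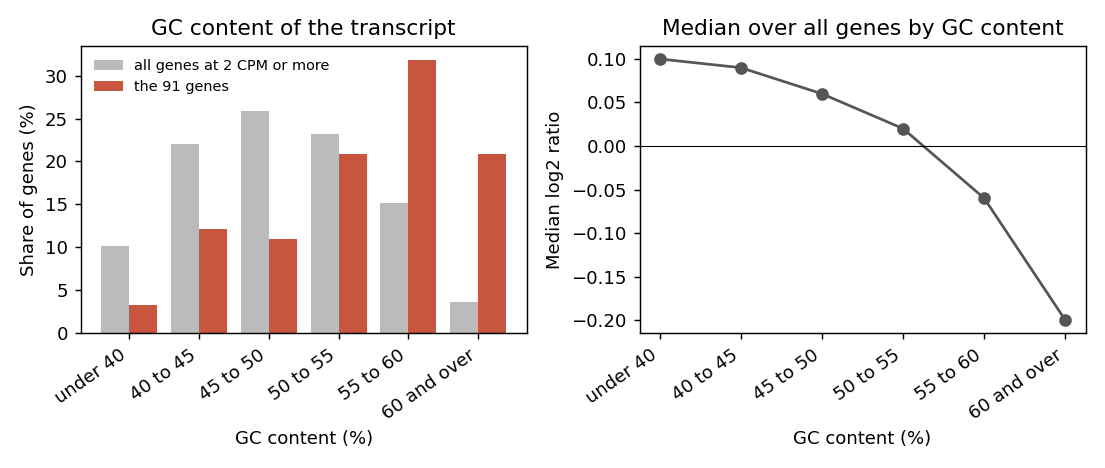
Left, share of genes in percent (y axis) by GC content of the longest transcript (x axis) for all genes at 2 CPM or more in Control (grey) and the 91 genes (red). Right, median log2 ratio, CBP-ifKO over Control, of all those genes by the same GC bands, which declines from 0.10 under 40% to -0.20 at 60% or over.

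The relatives of the 91 genes, defined by a shared symbol stem, were not selected and were tested by edgeR over all genes. Of 287 such relatives in 36 families, 35 were called lower (12.2%, beside 4.99% of all genes tested) and 7 higher, with a median log2 fold change of -0.05. One of the 35, Igfbp4, had met the criteria and been left out by name. The count of lower relatives was 13 without CBP-ifKO replicate 2, 16 without CBP-ifKO replicate 3 and 17 without Control replicate 3. Most relatives were thus not called, also in families where a member had a large difference.

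All 3 other somatostatin receptors tested were called lower. Sstr3 went from 34.0 ± 3.88 to 22.2 ± 1.48 CPM (SD, n = 3 each; log2 fold change -0.66, SE 0.10, adjusted p = 0.000671 by edgeR). Sstr2 (log2 fold change -0.60, SE 0.17, adjusted p = 0.0420 by edgeR) and Sstr4 (-0.38, SE 0.11, adjusted p = 0.0421 by edgeR) were near the threshold, and DESeq2 called neither (adjusted p = 0.122 and 0.0779). With offsets for GC content and length, Sstr4 was at -0.19 (adjusted p = 0.304 by edgeR). Leaving out any single library except Control replicate 2 ended the call of Sstr2 (adjusted p from 0.0988 to 0.154 by edgeR), and any except Control replicate 1 that of Sstr4 (0.0570 to 0.222). Scaling by library totals also ended both calls (0.0582 and 0.0669), and no filter on low counts that of Sstr2 (0.0512).

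Of 7 other Wnt genes, 1 was called, Wnt7b, and the remaining 6 lay at log2 fold changes from -0.47 (Wnt7a) to 0.40 (Wnt16). Wnt7b was at 25.7 ± 2.95 CPM in Control against 15.9 ± 1.59 CPM in CBP-ifKO (-0.75 on the log2 scale, SE 0.11, adjusted p = 0.000685 by edgeR). Of 11 other serotonin receptor genes, Htr2a and Htr4 were lower (log2 fold changes -0.73 and -0.62, adjusted p = 0.000335 and 0.000392 by edgeR). Both encode receptors that raise neuronal excitability, unlike Htr1a. Kcnh3, of the same family as Kcnh4, was lower by the same test (log2 fold change -0.70, adjusted p = 9.38e-05 by edgeR), as was Fxyd6 (-0.57, adjusted p = 0.00132 by edgeR).

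Some families were called in both directions. Of 7 other copines, 4 were lower, among them Cpne4 and Cpne2 (log2 fold changes -0.42 and -0.49, adjusted p = 0.000715 and 0.00705 by edgeR, the latter 0.0589 without CBP-ifKO replicate 2), and Cpne9 was higher (0.69, adjusted p = 0.00154 by edgeR). Of 35 other genes with the symbol stem Col, among them Col4a3bp, which encodes a ceramide transporter and no collagen, 5 were lower, with Col6a1 at a log2 fold change of -0.62 (adjusted p = 0.00272 by edgeR), and Col11a1 was higher (0.56, adjusted p = 0.00126 by edgeR). Igfbp5 was higher as well, at 103 ± 6.45 CPM in Control against 164 ± 13 CPM in CBP-ifKO (log2 fold change 0.63, adjusted p = 9.38e-05 by edgeR), opposite to Igfbp2 and Igfbp6. In the other heat shock proteins of the Hspa family, 0 of 12 were lower by edgeR or DESeq2 (3 at an unadjusted p under 0.05) and Hspa5 was higher (0.39, adjusted p = 0.00118 by edgeR).

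Marker lists placed 4 of the 91 genes in a cell type: Lefty1 in CA1, Necab2 in CA2, Tdo2 in dentate granule cells and Col3a1 in meningeal fibroblasts. Over all genes tested, edgeR called 4.99% lower and 1.40% higher. Apart from genes that met the criteria, 4 of 7 CA1 markers were called lower, among them Fibcd1 and Mpped1 (log2 fold changes -0.63 and -0.62, adjusted p = 1.48e-05 and 3.13e-05 by edgeR), with a median log2 fold change of -0.27. For CA2 it was 1 of 6, Ccdc3 (-0.67, adjusted p = 0.0131 by edgeR, and 0.0558 without Control replicate 3 or 0.0965 without CBP-ifKO replicate 2), and the median was -0.07. Of 9 dentate granule cell markers, Pdzd2 was lower (-0.57, adjusted p = 0.00150 by edgeR) and Lct higher (0.71, adjusted p = 6.50e-05 by edgeR), with a median of 0.01. Of 8 CA3 markers, 0 were called by edgeR or DESeq2 (median -0.20), and 3 were lower at an unadjusted p under 0.05. Over all 9 CA1 markers, those that met the criteria included, edgeR called 6 lower and DESeq2 called 4.

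In lists that hold none of the 91 genes, 4 of 6 markers of oligodendrocyte precursors were lower by edgeR and 3 by DESeq2. Among the 4 were Cspg4 (log2 fold change -0.57, adjusted p = 0.00251 by edgeR) and Pdgfra (-0.38, adjusted p = 0.00263 by edgeR). The summed level of that list was 205 to 213 CPM in Control and 165 to 167 CPM in CBP-ifKO. Of 5 mossy cell markers tested, Ajap1 (-0.66, adjusted p = 0.000428 by edgeR) and Calb2 (-0.49, adjusted p = 0.0382 by edgeR) were lower. The call of Calb2 was lost without Control replicate 3 (0.215) or any single CBP-ifKO replicate (0.0584 to 0.127). It was also lost with library totals only (0.0508) and with offsets for GC content and length (0.0510 by edgeR). Of 12 interneuron markers, Sst (-0.51, adjusted p = 0.00154 by edgeR) and Slc32a1 (-0.38, adjusted p = 0.0450 by edgeR) were lower. The call of Slc32a1 was lost by DESeq2 (0.0804) and without any single library except CBP-ifKO replicate 1 (0.0533 to 0.214). It was also lost with library totals only (0.0721) and with offsets for GC content and length (-0.17, adjusted p = 0.422 by edgeR). Of 7 mural cell markers, Vtn (-0.40, adjusted p = 0.0122 by edgeR) and Myh11 (-0.70, adjusted p = 0.0112) were lower; without CBP-ifKO replicate 2 neither was (0.0879 and 0.0946), nor was Vtn without CBP-ifKO replicate 3 (0.0562) or Myh11 without Control replicate 1 (0.0530). Of 5 markers of newborn neurons tested, Sox11 (-0.50, adjusted p = 0.0102 by edgeR; 0.0803 without CBP-ifKO replicate 2) and Mki67 (-0.53, adjusted p = 0.0273) were lower, the latter not by DESeq2 (0.0705) nor without any single library except Control replicate 2 (0.0630 to 0.113). Markers of astrocytes (10), oligodendrocytes (9), microglia (8) and endothelial cells (8) had 0 calls by edgeR or DESeq2 in either direction, with 1, 2, 2 and 1 of them lower at an unadjusted p under 0.05. Which cells the 91 transcripts come from was not measured in these bulk samples.

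Replicates differed more in the 91 genes than in other genes. The median coefficient of variation among the Control libraries was 13.8% for them and 8.36% for all genes at or above 2 CPM, which had a higher median level (20.1 CPM, beside 5.40 CPM). Control replicate 2 was the highest Control library for 36 of the 91 (39.6%, beside 40.8% of all genes), so that its high values for Kcnj4, Crocc, Vgf, C1qtnf4 and Wnt9a were not shared by the group as a whole. Leaving out any single library in turn, 43 of the 91 genes met the criteria every time.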

How the data were processed

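RNA was read as single-end 50 bp reads. The authors deposited raw counts per gene; per their notes and methods, reads were trimmed with Trim Galore 0.6.4, aligned with STAR 2.6.1 to GRCm38 and counted over exons with Rsubread, with no strand setting stated. Whether the samples of a group are fully separate was taken from their labels, and p-values measure only the spread between these pooled samples.

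Levels are counts divided by library totals, from 10199008 to 14950257 counts, so genes of few counts are measured less precisely. The 91 genes and all gene lists were chosen with earlier results of these data known, and role groups were assigned after the genes' values were seen. Some of the genes are not reported here, and every other selected gene is named; values in every library are given for the 10 largest differences, the 10 highest mean levels and the top 2 of each role group, and other genes are named only from marker lists, from families (at most 3 each) and beside the selection limit. edgeR 4.0.16 (quasi-likelihood test, TMM, default filterByExpr, Benjamini-Hochberg) was fitted on all 6 samples in R 4.3.3. It was tested on simulated data. DESeq2 1.42.0 and other settings were alternatives. GC content and positions came from GENCODE M21 (GRCm38), promoters from RefSeq (GRCm38.p6).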

Additional observations from a re-analysis of the deposited data

How the results depend on the processing

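The number of genes meeting the criteria, 91 with the named genes left out, depended most on the thresholds: 59 with 1 CPM added in place of 0.5, 52 with a Control minimum of 5 CPM, 171 at a log2 limit of -0.6 and 52 at -0.8. TMM scaling gave 117, which held all 91, and leaving out 1 library gave 95 to 123. Over all genes, edgeR called 897 lower and 252 higher; with library totals only it was 667 and 514, with no filter on low counts 413 were higher, and DESeq2 called 760 and 193. Leaving out 1 library gave 416 to 984 lower and 76 to 342 higher, 16 to 26 lower marker genes (27 with all libraries) and 13 to 30 lower relatives (35 with all libraries); the lowest lower counts came without CBP-ifKO replicate 2 (416, with 82 higher and 16 markers lower), CBP-ifKO replicate 3 (450, 76 and 17) and Control replicate 3 (467, with 79 higher). Fewer samples enter those fits.

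Deviations from the group means were little correlated between samples of the same replicate number (0.0784, 0.0381 and 0.000349). This cannot settle whether such samples were processed together. With the replicate block, 950 genes were called lower and 260 higher, with 30 markers and 33 relatives lower, and Sstr2 was no longer called (adjusted p = 0.0556); the block with GC and length offsets gave 1315 lower and 541 higher. The cause of the changed counts was not tested. Of 468 values of 36 named genes outside the group, 416 kept their direction and call, 47 lost the call, 5 gained it and 0 reversed. Genes of few counts limit precision: 12 of the 91 had under 10 counts in some library.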
